A study of Macaca mulatta with 24 samples.

Results

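The cytosolic ribosome reads messenger RNA on its small subunit and joins amino acids on its large subunit, and each subunit is a scaffold of ribosomal RNA dressed with proteins that are nearly all encoded by single genes. In mammals these genes share a pyrimidine tract at the start of their messages (the TOP motif), through which mTOR signalling sets their translation, and they are among the most abundant messages of brain tissue. Proteins named RPL or RPLP belong to the large subunit, and those named RPS, with RPSA and the product of FAU, to the small subunit.

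The genes described here are those whose symbol is RPL or RPS followed by a number and at most 1 letter from A, X, Y and L, or is RPLP0, RPLP1, RPLP2, RPSA or FAU. The rule took 82 of the 17208 gene symbols measured, 49 of the large and 33 of the small subunit, and used no measured value. Of the 82, 77 averaged 10 or more TPM (transcripts scaled to a fixed total per animal) and were tested, 44 large and 33 small subunit genes among 9197 genes tested in all. The 5 below that limit were all large subunit genes: RPL17, RPL39L, RPL36A, RPL3L and RPL10L. RACK1 (listed as GNB2L1), a ribosomal protein whose symbol does not follow the rule, is given beside the others and is not counted.

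RNA-Seq was made from the nucleus accumbens core (NAcc), a ventral striatal region of the reward circuit, of 24 unrelated adult male rhesus macaques, each sequenced once from a bulk dissection of about 1 cubic mm. Monkeys that drank had been induced with 4% ethanol at 0.5 to 1.5 g/kg/day by schedule-induced polydipsia and then had ethanol and water side by side for 22 h per day over 12 months, with tissue taken without imposed abstinence. The 8 LD* animals were labelled LD and took 0.47 to 2.07 g/kg of ethanol per day, and the 8 HD* animals comprised 4 labelled HD, which took 2.74 to 3.09 g/kg, and 4 labelled VHD, which took 3.09 to 3.78 g/kg. The 8 controls shared the rooms, the induction and the sessions but had water at both spouts and a 10% maltose dextrin solution for calories.

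Cohort was crossed with drinking only in part: controls numbered 3 in cohort 5, 2 in 7a and 3 in 7b, LD* animals 2 in cohort 4, 3 in 7a and 3 in 7b, and the HD and VHD animals were 2 each in cohorts 5 and 7a. The 39 cell type markers that were found, of 40 listed, were above 0 in all 24 animals. Control replicate 6, of cohort 7b, stood apart in striatal neuron markers. It had 304 TPM of PPP1R1B, the dopamine signalling protein DARPP-32 of striatal projection neurons, against 1051 to 3926 TPM in the other 23 animals. Median ribosomal protein differences of HD*, LD*, HD and VHD animals from controls are given with and without this animal. Most other results that use all controls are given only with it. TPM values are shares of a fixed total, so a rise of abundant genes lowers all others, and in bulk tissue fewer cells of a type and less RNA per cell cannot be told apart.

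Together the 82 genes took between 7.74% and 18.5% of all TPM in an animal, with a median of 9.48%. Controls averaged 10.4% ± 2.66 (SD, n = 8) and ran from 7.74% to 15.7%. LD* animals averaged 10.3% ± 2.99 (SD, n = 8), from 8.18% to 17.1%, and HD* animals 11.6% ± 4.21 (SD, n = 8), from 7.84% to 18.5%. These 3 groups overlapped almost entirely, and each of them held at least 1 animal above 15%. Within HD* the categories did not overlap. The HD animals had 9.06%, 8.52%, 7.96% and 7.84%, and the VHD animals had 13.1%, 10.9%, 17.2% and 18.5% (means 8.35% ± 0.560 and 14.9% ± 3.53, SD, n = 4 each). Over both cohorts intake did not order these animals closely. HD* replicate 3 (HD, cohort 5) and HD* replicate 6 (VHD, cohort 7a) both took 3.09 g/kg, and their shares were 8.52% and 17.2%. Within a cohort the order was closer. In cohort 5, intakes of 2.74, 3.09, 3.28 and 3.78 g/kg went with shares of 9.06%, 8.52%, 10.9% and 13.1%. In cohort 7a, 2.82, 3.01, 3.09 and 3.32 g/kg went with 7.96%, 7.84%, 17.2% and 18.5%.

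**Figure D1:**
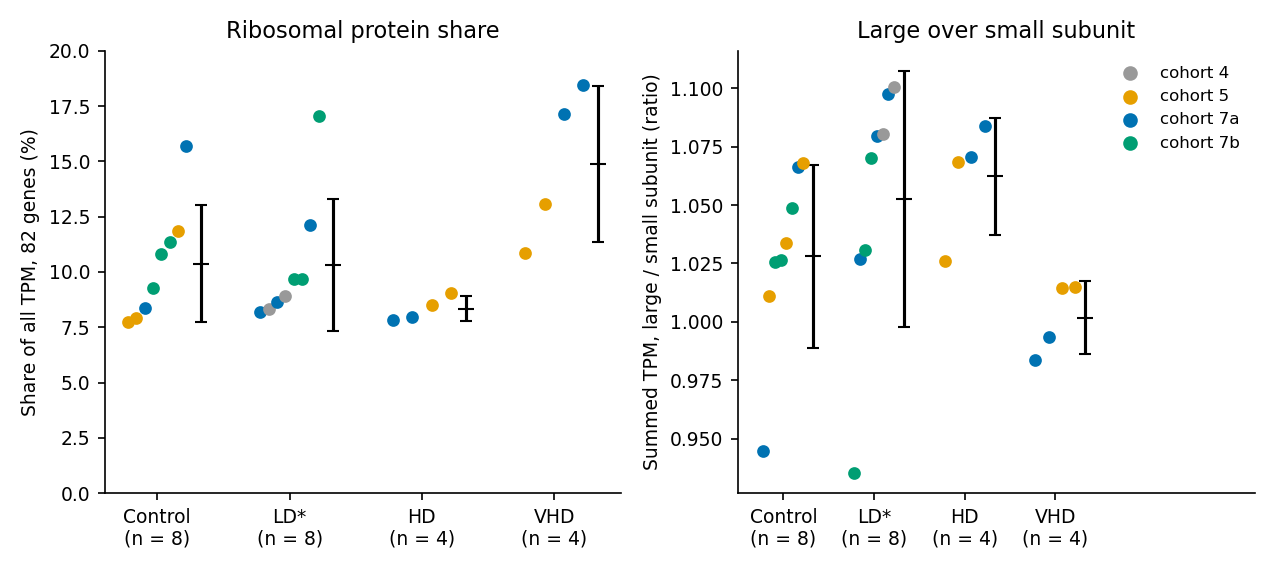
Left, share of all TPM (percent, axis from 0) taken by the 82 ribosomal protein genes; right, summed TPM of large over small subunit genes (ratio). Each point is 1 animal coloured by cohort and black bars are the mean ± SD of the category; the 4 VHD animals lie at 10.9% to 18.5%, above the 4 HD animals at 7.84% to 9.06%, while controls and LD* animals spread over both ranges.

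The high animals were high in nearly every gene. HD* replicate 8 (VHD, cohort 7a) had the highest value of 44 of the 77 tested genes, LD* replicate 5 (cohort 7b) of 21, HD* replicate 6 (VHD, cohort 7a) of 10 and Control replicate 8 (cohort 7a) of 2. In each of these 4 animals all 77 genes were above their own mean. Control replicate 3 (cohort 5), with a share of 7.74%, had the lowest value of 26 genes. By cohort the share ranged from 8.33% to 8.93% in cohort 4, from 7.74% to 13.1% in cohort 5, from 7.84% to 18.5% in cohort 7a and from 9.28% to 17.1% in cohort 7b.

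Per-length levels differed widely between genes, although most of their proteins occur as single copies in a ribosome. The highest mean over 24 animals was that of RPS27, a zinc-finger protein of the small subunit, at 4090 TPM. RPS18, of the small subunit head, at 3215 TPM, RPL37A at 2754 TPM and the stalk protein RPLP1 at 2556 TPM were also among the highest. Tested small subunit genes had a median level of 1617 TPM and large subunit genes one of 1154 TPM. A mean above 2000 TPM was found for 9 of 33 small and 4 of 44 large subunit genes. The summed TPM of large over small subunit genes stayed near 1, between 0.935 and 1.10.

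At the low end of the tested genes stood RPS10, of the small subunit head, with a mean of 11.9 TPM, and just below the limit RPL17, which sits beside the exit of the nascent peptide tunnel, with 4.09 TPM. RPL36A was listed at 0.270 TPM while RPL36AL, its near-identical autosomal copy outside the symbol rule, was at 206 TPM. In RefSeq no protein-coding gene lies between RPS10 and NUDT3 or between RPL36A and HNRNPH2, and the measured symbols hold read-through rows for RPS10-NUDT3, at 0.00313 TPM, and RPL17-C18orf32, at 0.0631 TPM. Only uniquely aligned reads were counted, and reads shared by overlapping or near-identical genes may be lost from such genes. Its part in their low levels was not tested, and their levels are uncertain.

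The tested genes moved together over the 24 animals. Pearson's r between a gene and the mean of the other tested members, both as log2(TPM + 1), had a median of 0.97 (0.96 for large and 0.98 for small subunit genes), and it was above 0.9 for 69 of 77 genes against 70 of 9119 other genes, or 0.768%. All of these values share 1 TPM total per animal, and they are given as a description. Among the closest followers were RPS7 (r = 0.99) and RPS6, whose phosphorylation is a readout of mTOR signalling (r = 0.99). Without the 2 animals farthest from the median, HD* replicates 6 and 8, the median r was 0.96, and without the 4 animals highest in the mean it was 0.93, with 54 of 77 genes above 0.9.

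Small subunit genes had steeper slopes than large subunit genes, as a description with no test. The slope of a gene on the mean of the others, in log2 per log2, had a median of 1.08 for small and 0.94 for large subunit genes, and exceeded 1 in 24 of 33 and 19 of 44 of them. The steepest was RPS18, with a slope of 1.35 and levels from 1922 to 6117 TPM. The shallowest were large subunit genes: RPL15, a core protein of the large subunit, with a slope of 0.40, RPL22, which also binds RNA outside the ribosome, with 0.51, RPL4, which reaches into the peptide tunnel, with 0.55, and RPL3, near the peptidyl transferase centre, with 0.62. RPL15 ranged only from 520 to 806 TPM over the 24 animals.

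**Figure D2:**
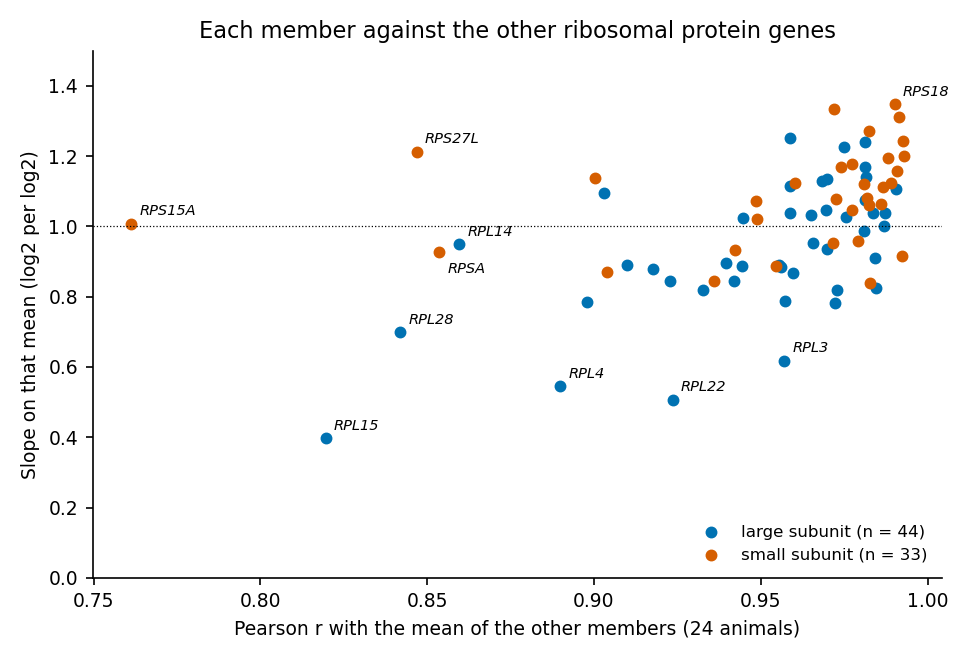
Each point is 1 of the 77 tested genes; the horizontal axis is Pearson's r with the mean of the other tested genes over 24 animals and the vertical axis the slope on that mean (log2 per log2, dotted line at 1). RPL15, RPL22, RPL4 and RPL3 lie lowest, at slopes of 0.40 to 0.62, and RPS15A lies farthest left, at r = 0.76.

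The balance of subunits shifted with the overall level. The mean centred log2(TPM + 1) of small subunit genes minus that of large subunit genes ran from -0.09 to 0.15. It was -0.09 in LD* replicate 8, with a share of 8.18%, and 0.15 in LD* replicate 5, with a share of 17.1%, and Control replicate 8, with a share of 15.7%, had 0.14. Its mean was 0.02 ± 0.07 for controls, -0.02 ± 0.08 for LD* and 0.004 ± 0.05 for HD* animals (SD, n = 8 each), and the groups overlapped. The 4 VHD animals had 0.01, 0.02, 0.06 and 0.09 and the 4 HD animals 0.001, -0.03, -0.06 and -0.07, without overlap. The balance and the share are made from the same genes, and no test was made between them.

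**Figure D3:**
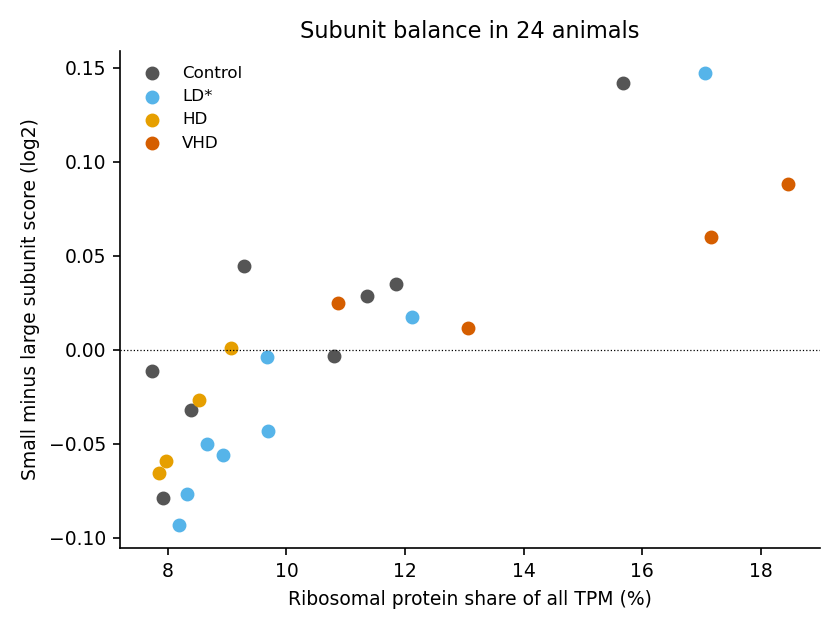
Small minus large subunit score (mean centred log2 values) against the share of all TPM (percent) taken by ribosomal protein genes, 1 point per animal coloured by category. The score is at most 0.04 in animals with a share below 15%, and the 4 animals above 15% reach 0.06 to 0.15.

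A few genes departed from the others. RPS15A, of the small subunit, had the lowest likeness, with r = 0.76. Relative to the mean of the other genes it was lowest in HD* replicate 4 (a departure of -0.65 in log2) and highest in LD* replicate 5 (0.43). Its level ran from 604 to 1836 TPM in controls (median 1141), from 704 to 2246 TPM in LD* animals (median 969) and from 557 to 2039 TPM in HD* animals (median 981), and the groups overlapped throughout.

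RPL15 departed by being flat: its departure was lowest, at -0.66, in HD* replicate 8, the animal with the highest share, and highest, at 0.30, in Control replicate 3, the animal with the lowest share. RPSA, the small subunit protein also known as the laminin receptor, had r = 0.85 and its lowest departure, -0.50, in LD* replicate 5. RPS27L, a p53-responsive paralog of RPS27, had r = 0.85 and was high relative to the others in HD* replicate 4 (0.69) and in Control replicate 6 (0.67), the animal low in striatal neuron markers. RPL14, of the large subunit, had r = 0.86, with departures from -0.39 to 0.38. RPL28, a large subunit protein that budding yeast lacks, had r = 0.84 and its highest departure, 0.48, in LD* replicate 1.

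The first question of the study was whether chronic drinkers differed from controls. With DESeq2, the paper reported genes that differed between HD* animals and controls, and the upregulated ones were enriched in ribosomal annotations. The results here come from another method, limma on log2(TPM + 1), and are not a like-for-like comparison with it. For HD* animals against controls, none of the 77 genes passed limma's test at an adjusted p under 0.05, nor did any of the 9197 genes (percent called 0). At an unadjusted p under 0.05 there were 0 of 77 members, against 3.88% of all genes. The differences were small and mostly positive, with 75 of 77 above 0 against 26% of all genes, a median of 0.12 on the log2 scale and a range of -0.17 to 0.26 (all genes: median -0.10). Large and small subunit genes had the same median to 2 decimals, 0.12. The share of all genes above 0 turned on the scaling: after rescaling by TMM (trimmed mean of M-values, which scales animals on the bulk of their genes) it was 59.3%, with 76 of 77 members above 0 and a median of 0.26 (all genes: 0.04). Without Control replicate 6 the median was 0.11. Leaving out HD* replicate 8 gave 0.02 and HD* replicate 6 gave 0.04, Control replicates 1 or 3 gave 0.07 each, HD* replicates 5 or 7 gave 0.19 each and Control replicate 8 gave 0.21. With cohort as a covariate it was 0.20. Within cohort 5 the median was 0.18 (4 HD* animals, 3 controls) and within cohort 7a 0.03 (4 HD* animals, 2 controls). In the same comparison 10 of 10 striatal projection neuron markers were above 0 (median 0.42), and 8 of 8 oligodendrocyte (median -0.36) and 6 of 6 astrocyte markers (median -0.17) were below it. Unlike the striatal list, the general neuronal markers had 5 of 6 below 0 (median -0.21). Microglial markers had 4 of 6 below it (median -0.14) and endothelial markers 1 of 2 tested. These marker values include Control replicate 6, which had the lowest control sum of striatal projection neuron markers (739 TPM, control median 6663 TPM). It also had the highest control sums of oligodendrocyte (9666.5 TPM, median 3410 TPM) and astrocyte markers (8984 TPM, median 4266 TPM). None of these markers passed the limma test, and their part in the ribosomal protein differences was not tested.

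The smallest p among the members belonged to RPL35, which lies at the tunnel exit. Its level was 1153 to 2291 TPM in controls (median 1583) and 1333 to 3288 TPM in HD* animals (median 1623). The groups overlapped over most of their range, and the difference was 0.26 ± 0.21 (log2, SE; limma adjusted p = 0.806). RPL36 differed by 0.20 ± 0.17 and RPL11, which with RPL5 carries the 5S ribosomal RNA into the large subunit, by 0.22 ± 0.19 (limma adjusted p = 0.806 for both).

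LD* animals and controls gave a median difference near 0. None of the 77 genes passed the limma test (percent called 0), and 0 of 77 had an unadjusted p under 0.05 against 1.78% of all genes. The median difference was -0.01 (all genes: -0.004), with 30 genes above 0 and 47 below, and 22 of 44 large but 8 of 33 small subunit genes were above 0. The sign turned in cohort subsets: the median was -0.26 within cohort 7a (3 LD* animals, 2 controls) and 0.15 within cohort 7b (3 and 3), and it was -0.03 without Control replicate 6 and 0.04 after rescaling by TMM. RPSA had the smallest p. It measured 1166 to 2486 TPM in controls (median 1691) and 1008 to 1762 TPM in LD* animals (median 1456), with overlap, and differed by -0.25 ± 0.19 (log2, SE; limma adjusted p = 1.00).

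HD* against LD* animals gave 0 of 77 genes past the limma test (percent called 0) and 0 of 77 at an unadjusted p under 0.05, against 0.728% of all genes. The median difference was 0.13, with 76 of 77 genes above 0 against 25.9% of all genes, and it was 0.02 without HD* replicate 8, 0.03 without HD* replicate 6, 0.19 without HD* replicate 5 or 7 and 0.24 without LD* replicate 5. After TMM rescaling it was 0.21, with 77 of 77 genes above 0 against 49.4% of all genes, and with cohort as a covariate it was 0.20. RPSA again had the smallest p, with 1105 to 2958 TPM in HD* animals (median 1710). Its groups overlapped, and its difference of 0.36 ± 0.19 did not pass (log2, SE; limma adjusted p = 0.914). Comparisons that use the same HD*, LD* or control animals are not independent of each other.

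VHD and HD animals, both part of HD*, were set apart by these genes. Of the 77 genes, 73 were higher in VHD than in HD animals at a limma adjusted p under 0.05 and none was lower, while 4.78% of all 9197 genes were called higher and 19% lower. Both subunits took part, with 42 of 44 large and 31 of 33 small subunit genes called. The median difference was 0.80 on the log2 scale, 0.78 for large and 0.83 for small subunit genes, against -0.23 for all genes, and the members ranged from 0.33 to 1.05. None reached an adjusted p of 0.001, and 76 of 77 had an unadjusted p under 0.05 against 39.7% of all genes. Without overlap between the 4 VHD and the 4 HD animals were 68 of 77 genes, against 6.03% of all genes in that direction.

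**Figure D4:**
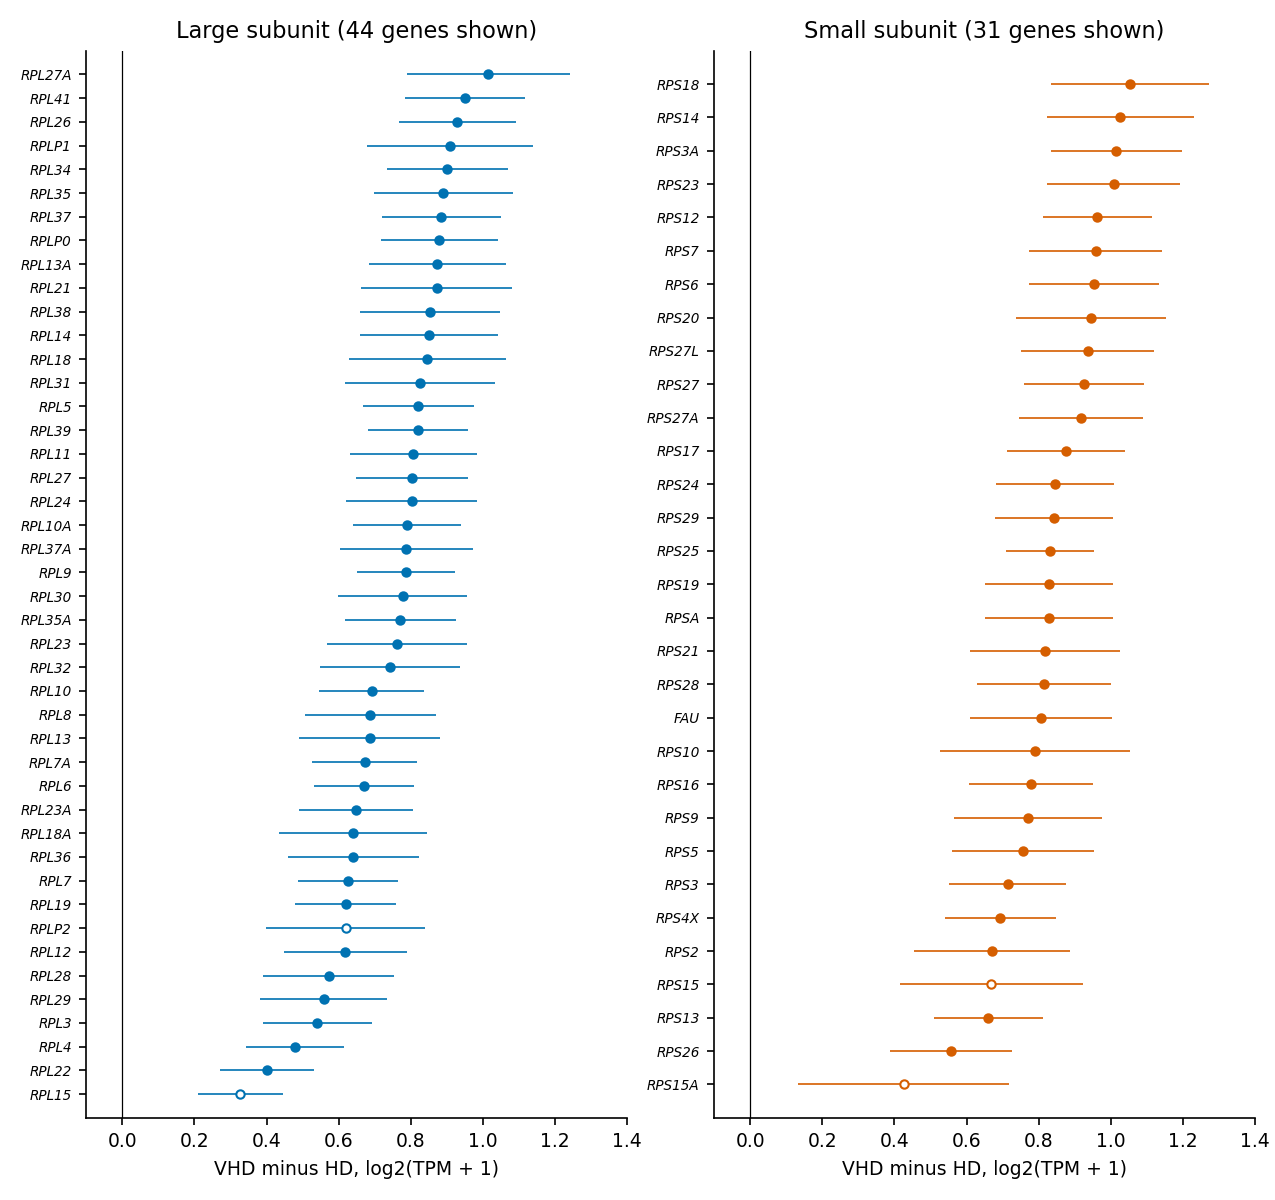
Difference in mean log2(TPM + 1) between 4 VHD and 4 HD animals for 75 of the 77 tested genes (points) with its standard error (bars), large subunit on the left and small subunit on the right. Filled points passed the limma test at an adjusted p under 0.05 and open points did not; all 75 differences shown are above 0, from 0.33 to 1.05.

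The smallest p belonged to RPS25, a small subunit protein used in internal initiation by some viral messages. It measured 633, 630, 555 and 569 TPM in the HD animals and 1027, 964, 1102 and 1162 TPM in the VHD animals. Every VHD animal exceeded every HD animal, and the difference was 0.83 ± 0.12 (log2, SE; limma adjusted p = 0.00329). RPS12, of the small subunit beak, measured 1723, 1690, 1658 and 1445 TPM in HD and 2871, 2666, 3525 and 3742 TPM in VHD animals. The categories were again apart, by 0.96 ± 0.15 (limma adjusted p = 0.00374). RPL39, a short protein lining the peptide tunnel, measured 649, 664, 545 and 539 TPM in HD and 986, 920, 1102 and 1232 TPM in VHD animals. It showed no overlap and differed by 0.82 ± 0.14 (limma adjusted p = 0.00483).

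The largest difference was that of RPS18, with 2711, 2346, 2024 and 1922 TPM in HD and 3839, 3271, 5997 and 6117 TPM in VHD animals. The categories did not overlap, the 2 VHD animals of cohort 7a were far above the 2 of cohort 5, and the difference was 1.05 ± 0.22 (limma adjusted p = 0.00867). RPS14, RPS3A and RPL27A, named after their values were seen, followed with 1.03, 1.02 and 1.02. The 2 HD and 2 VHD animals of each cohort allowed a value within it: the median over members was 0.44 in cohort 5, with 76 of 77 genes above 0 (median of all genes -0.05), and 1.15 in cohort 7a, with 77 of 77 above 0 (all genes -0.43).

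The stalk and other structural units, singled out after their values were seen, gave values like the rest. The stalk, which recruits the translation factors, is made of RPLP0, RPLP1 and RPLP2, whose differences were 0.88 ± 0.16, 0.91 ± 0.23 and 0.62 ± 0.22. The last did not pass (limma adjusted p = 0.0606), and its VHD range of 1217 to 2898 TPM met its HD range of 1168 to 1252 TPM. The partners RPL5 and RPL11 differed by 0.82 ± 0.15 and 0.81 ± 0.18. FAU and RPS27A, made as fusions with a ubiquitin-like protein and with ubiquitin, differed by 0.81 ± 0.20 and 0.92 ± 0.17.

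The 4 genes that did not pass were RPLP2, RPL15, RPS15 and RPS15A. RPL15 measured 677, 600, 564 and 571 TPM in HD and 760, 725, 793 and 742 TPM in VHD animals. Its categories did not overlap but lay close, 0.33 ± 0.12 apart (limma adjusted p = 0.0618). RPS15A measured 1030, 995, 907 and 557 TPM in HD and 967, 703, 1217 and 2039 TPM in VHD animals. These overlapped, and the difference of 0.43 ± 0.29 had a limma adjusted p of 0.297. RPS15, near the decoding site of the small subunit, measured 1549 to 1888 TPM in HD and 1704 to 4594 TPM in VHD animals and differed by 0.67 ± 0.25 (limma adjusted p = 0.0730).

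The count of 73 depended on single animals. Leaving out HD* replicate 6 (VHD) gave 44 called genes, leaving out HD* replicate 5 (HD) 48 and leaving out HD* replicate 7 (HD) 51, while all medians stayed between 0.68 and 0.93. After rescaling by TMM, which moved the median of all genes from -0.23 to -0.06, 56 members were called, all higher, with a median of 0.98, and the share of higher among all called genes went from 20.1% to 35.1%.

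Cell type markers moved with the same division, in which 19% of all genes were called lower and 4.78% higher. Of 10 striatal projection neuron markers, 9 fell (limma adjusted p under 0.05), with a median of -1.15 over the 10, and their summed level was 8675 to 10250 TPM in HD and 3209 to 5944 TPM in VHD animals, without overlap. The neuronal markers had 2 of 6 lower, with summed levels of 2880 to 3490 TPM in HD and 1535 to 3150 TPM in VHD animals. Astrocyte markers had 2 of 6 higher, with sums of 1768 to 3111 TPM in HD and 4421 to 7194 TPM in VHD animals, and microglial markers 3 of 6 higher, with sums of 273 to 359 TPM and 360 to 630 TPM. Oligodendrocyte markers had 1 of 8 higher and endothelial markers 0 of 2 tested. Over all 24 animals the median r with the ribosomal protein mean was -0.43 for the 10 striatal projection neuron and -0.61 for 6 neuronal markers. It was 0.30 for 6 astrocyte, 0.42 for 6 microglial, -0.02 for 8 oligodendrocyte and -0.25 for 2 endothelial markers. These stand beside a median of -0.51 for all 9119 other tested genes, as a description. No marker was at 0 in any animal. The part of cell composition in the rise of ribosomal protein genes was not tested.

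Against controls, in a comparison added after the values were seen, VHD animals had 0 of 77 genes past the limma test (percent called 0) and 70 of 77 at an unadjusted p under 0.05, against 29.8% of all genes, with a median difference of 0.52. Without Control replicate 6 the median was 0.50 and 66 genes had such a p, against 33.7% of all genes. Within cohort 5 the median was 0.41 and within cohort 7a 0.63. HD animals had 0 of 77 past the test (percent called 0) and 0 at an unadjusted p under 0.05, against 6.74% of all genes, and all 77 differences were below 0, where 53.4% of all genes were above it, with a median of -0.28 (-0.29 without Control replicate 6). The cohorts were unlike in this: within cohort 5 (2 HD animals, 3 controls) 22 of 77 differences were above 0, with a median of -0.04 (all genes: -0.02), and within cohort 7a (2 and 2) none was, with a median of -0.52 (all genes: 0.11). For HD animals against controls 10 of 10 striatal projection neuron markers were above 0 (median 1.01), and 6 of 6 astrocyte (median -0.53) and 6 of 6 microglial markers (median -0.39) were below it. Neuronal markers had 4 of 6 above 0 (median 0.22), oligodendrocyte markers 0 of 8 (median -0.30) and endothelial markers 2 of 2 tested (median 0.11). For VHD animals 8 of 10 striatal projection neuron markers were below 0 (median -0.11), and astrocyte and microglial markers each had 3 of 6 above it (medians 0.02 and 0.09). Neuronal markers had 6 of 6 below 0 (median -0.45), oligodendrocyte markers 7 of 8 (median -0.36) and endothelial markers 2 of 2 tested (median -0.21). The median of all genes was -0.22 for VHD animals. These marker values include Control replicate 6, which was low in striatal neuron markers, and are not given without it. No marker passed the limma test in these comparisons, and the part of the markers in the ribosomal protein values was not tested. Both comparisons share the same 8 controls.

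Among the 16 drinkers, the slope on daily intake was positive for 77 of 77 genes (26.3% of all genes), with a median of 0.16 log2 units per g/kg, and none passed the limma test (percent called 0). An unadjusted p under 0.05 was found for 1 of 77 members against 6.86% of all genes. That gene was RPSA, with a slope of 0.25 ± 0.10 (SE; limma adjusted p = 0.457). With cohort as a covariate the median slope was 0.42 and 38 members had an unadjusted p under 0.05, against 34.2% of all genes, but still none passed. The median slope was 0.11 without HD* replicate 8, and 0.07 over all 24 animals with controls at an intake of 0. RPL35 and RPL36 had slopes of 0.25 ± 0.12 and 0.19 ± 0.09 (limma adjusted p = 0.457 for both).

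No difference between cohorts passed the limma F test for any of the 77 genes (percent called 0), and 0 of 77 had an unadjusted p under 0.05 against 8.32% of all genes. The smallest p belonged to RPS9, of the small subunit (limma adjusted p = 0.537), followed by RPL13, a large subunit gene that the study considered as a constitutive reference (0.550), and RPS15 (0.552). RPL13 ranged from 364 to 912 TPM over the animals and rose in VHD animals, with 426, 408, 465 and 428 TPM in HD and 648, 458, 859 and 912 TPM in VHD animals. One VHD value lay within the HD range, and the difference was 0.69 ± 0.20 (limma adjusted p = 0.0280). The HD* effect did not differ past the test between cohorts 5 and 7a in any member (percent called 0), 0 of 77 had an unadjusted p under 0.05 against 1.83% of all genes, and the difference of effects, cohort 7a minus cohort 5, was above 0 for 7 of 77 against 42.8% of all genes, with a median of -0.13. After TMM rescaling it was above 0 for 31 of 77 members against 58.1% of all genes, with a median of -0.03.

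Paralogs of ribosomal protein genes had mean levels from 0.0438 TPM (RPL10L) to 206 TPM (RPL36AL) in this tissue. RPS27L, RPL22L1 and RPL26L1 averaged 42.9, 75.5 and 140 TPM. RPL3L, the muscle form of RPL3, had a mean of 0.0538 TPM and was listed at 0 in 10 animals, against 1940 TPM of RPL3. RPL10L, a testis form of RPL10, had a mean of 0.0438 TPM and was listed at 0 in 14 animals, including all 4 VHD animals, against 605 TPM of RPL10. RPL39L, another paralog best known from testis, had a mean of 2.84 TPM against 793 TPM of RPL39. It measured 0.854, 2.67, 1.20 and 4.25 TPM in HD and 1.08, 4.00, 5.09 and 1.26 TPM in VHD animals. In these values the categories overlapped, unlike those of RPL39, and in the fit of all genes averaging 1 TPM or more the difference was 0.22 ± 0.41 (limma adjusted p = 0.743).

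RPL17, also under the limit of 10 TPM, measured 3.31, 2.14, 3.36 and 2.90 TPM in HD and 4.61, 5.10, 6.73 and 7.81 TPM in VHD animals. The categories did not overlap, and it differed by 0.84 ± 0.22 among genes with at least 1 TPM (limma adjusted p = 0.0267), a value close to the median of the abundant members.

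RPS27L and RPS27 were both higher in VHD animals. RPS27L measured 32.2, 36.0, 23.7 and 26.8 TPM in HD and 43.2, 67.7, 63.8 and 56.3 TPM in VHD animals, without overlap, and rose by 0.94 ± 0.18 (limma adjusted p = 0.00720), beside 0.92 ± 0.17 for RPS27 (limma adjusted p = 0.00549). The log2 ratio of the pair was -6.61 ± 0.19 in HD and -6.60 ± 0.40 in VHD animals (SD, n = 4 each), which overlapped. RPL22L1, outside the rule, rose by 0.45 ± 0.15 (limma adjusted p = 0.0496) beside 0.40 ± 0.13 for RPL22 (limma adjusted p = 0.0448), and their log2 ratio was -2.10 to -1.81 in HD and -2.13 to -1.68 in VHD animals, with overlap.

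RPL26L1 and RPL26, a large subunit protein at the tunnel exit, gave unlike values; the difference between their changes was not tested. RPL26 measured 1404, 1276, 1089 and 1130 TPM in HD and 2016, 1924, 2657 and 2822 TPM in VHD animals, without overlap, and rose by 0.93 ± 0.16 (limma adjusted p = 0.00525). RPL26L1 lay between 136 and 143 TPM in HD and between 129 and 158 TPM in VHD animals, and its difference was 0.08 ± 0.12 (limma adjusted p = 0.652). Over the 24 animals RPL26L1 had r = 0.46 with the ribosomal protein mean. The log2 ratio of the pair was -3.28 to -2.95 in HD and -4.44 to -3.67 in VHD animals, and did not overlap.

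**Figure D5:**
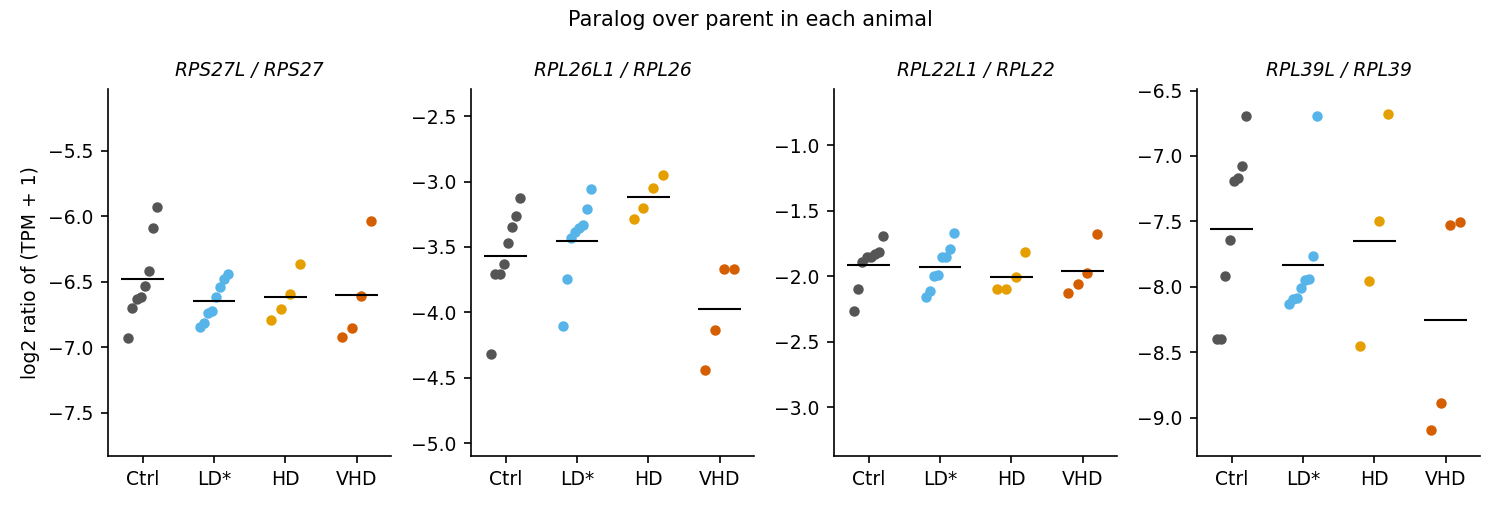
Log2 ratio of (TPM + 1) of a paralog to its parent gene in each animal by category (8 controls, 8 LD*, 4 HD and 4 VHD animals); lines are means and every panel spans the same log2 distance. The RPL26L1 to RPL26 ratio is lower in all 4 VHD animals (-4.44 to -3.67) than in all 4 HD animals (-3.28 to -2.95), while the other 3 pairs overlap.

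RPL36AL rose by 0.40 ± 0.13 (limma adjusted p = 0.0433) beside RPL36A, which at 0.270 TPM was too low to test. RPL7L1, a nucleolar relative of RPL7, had a mean of 4.23 TPM against 969 TPM of RPL7. RACK1, outside the rule, had r = 0.97 with the others and rose by 0.67 ± 0.16 (limma adjusted p = 0.0129).

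Beyond the genes of the symbol rule, the tested genes most like the shared pattern over 24 animals were PFDN5 (r = 0.99), a subunit of the prefoldin chaperone, SLIRP (0.98), which binds mitochondrial RNA, C22orf32 (0.98), GNB2L1 (0.97), the ribosomal protein gene RACK1, and ATP5E (0.96), a small subunit of ATP synthase. The most opposite were SV2A (-0.98), a synaptic vesicle protein, PAFAH1B1 (-0.98), a dynein regulator, and KDM5C (-0.98), a histone demethylase. PFDN5 measured 575 to 659 TPM in HD and 826 to 1673 TPM in VHD animals, and SV2A 278 to 346 TPM and 104 to 222 TPM, neither with overlap.

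Lists of related genes were counted in the same way, and differences between lists were not tested. Beside them, 4.78% of all genes rose and 19% fell between HD and VHD animals, with a median of -0.23. Of 20 TOP messages outside the symbol rule, a list of translation factors that also holds RACK1, 8 rose and 1 fell between HD and VHD animals, with a median of 0.37. Of 35 tested ribosome assembly factors, none rose and 8 fell, with a median of -0.30, close to the values of all genes. Of 72 tested mitochondrial ribosomal proteins, which serve the organelle's own ribosome, 10 rose and 2 fell, with a median of 0.04. Median r with the cytosolic ribosomal protein mean was 0.76, -0.70 and 0.21 for these lists, against -0.51 for all other tested genes. In the comparisons of HD* or LD* animals with controls and with each other, none of their genes passed the limma test.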

How the data were processed

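Gene-level values were TPM, which the authors made and deposited for all 24 animals, 1 column each. Their name speaks of normalized counts, but columns sum to between 999998 and 1000000. The authors aligned polyA-selected reads to the MacaM assembly with STAR 2.5.2b, kept unique alignments and counted them with HTSeq 0.6.1p1. How TPM were made, and with which lengths, is not given in the sources used here, and these differ on whether libraries were stranded and paired-end. Depth is therefore unknown and no counting error is given.

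Values were analysed as log2(TPM + 1). Fold changes on this scale understate low genes. Genes averaging 10 TPM or more (9197) entered limma 3.58.1 under R 4.3.3 (empirical Bayes with trend), adjusted by Benjamini-Hochberg over all of them at 0.05. HD*, LD* and controls shared 1 model of 24 animals, VHD and HD were compared in the 8 HD* animals, the intake slope in 16 drinkers, cohorts by an F test with group as covariate, and the HD* effect by cohort in cohorts 5 and 7a. The test was tried on simulated data, with genes drawn independently and 200 of 9197 changed. At a log2 change of 0.5 it recovered 62 of them for HD* against controls and 0 for VHD against HD. At a change of 1 it recovered 171 and 102. A log2 change of 0.5 was thus mostly missed. The simulated spread was taken within HD*, LD* and controls, so it includes the difference between HD and VHD. Alternatives were pseudocounts of 0.1 and 8, filters of 1 and 100 TPM or none, trimmed mean of M-values (TMM) rescaling, cohort as covariate, only the compared groups, and each animal left out. Descriptions and plots used Python 3.11.15, numpy 2.4.6, pandas 2.3.3 and matplotlib 3.10.9.

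Members, gene lists, markers and tests were chosen with earlier results of these data known. Members named are, per comparison, the 3 with the smallest p; the 5 highest and 5 lowest in mean; the 6 least and 3 most like the others; paralog pairs; and RPL13. Others were chosen after their values were seen: RPS14, RPS3A and RPL27A by their VHD minus HD difference, RPLP0, RPLP2, RPL5, FAU and RPS27A as parts of structural units. Replicate numbers follow the order of the records and pair nothing. No sequences or coordinates were used here, and a few genes are not reported here by name.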

Additional observations from a re-analysis of the deposited data

Results flagged for a closer look

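Within a group or category, 21 of 160 sets of values held an animal far from the others by Dixon's criterion. The sets share animals and hold genes that move together, so they are not independent and the count cannot be set against a chance rate. Most were the same 2 animals. LD* replicate 5 was the highest LD* animal in the ribosomal protein share (17.1%, others 8.18% to 12.1%) and the lowest in the ratio of large over small subunit TPM (0.935, others 1.03 to 1.10). It was also the highest LD* animal in RPL11 (1921 TPM), RPL26 (3125 TPM), RPL39 (1342 TPM), RPL7 (1440 TPM), RPLP1 (3860 TPM), RPS12 (3726 TPM), RPS15A (2246 TPM), RPS18 (5790 TPM), RPS27 (7294 TPM), RPS27L (83.2 TPM) and RPS7 (3288 TPM). Its summed striatal projection neuron markers, 4458 TPM, lay inside the LD* range of 3341 to 9926 TPM, and so did its astrocyte (4651 TPM) and microglial sums (377 TPM). Its neuronal sum was the lowest of the LD* animals (1840 TPM, LD* median 2870 TPM), as was its endothelial sum (47.3 TPM, median 62.0 TPM). Its oligodendrocyte sum was the highest (6509 TPM, median 2748 TPM).

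Control replicate 8 was the lowest control in the large over small subunit ratio (0.945, others 1.01 to 1.07) and the highest in RPL11 (1833 TPM), RPL36 (772 TPM), RPLP1 (3803 TPM), RPS6 (3057 TPM) and RPS7 (2827 TPM). HD* replicate 8 was the highest HD* animal in RPS15A (2039 TPM, others 557 to 1217 TPM). Among the 4 HD animals, HD* replicate 3 was apart in RPL35 (1464 TPM, others 1333 to 1350 TPM).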

How the results depend on the processing

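No member passed in HD* against controls, LD* against controls, HD* against LD*, the intake slope, the cohort test or the interaction under any alternative run. In VHD against HD, members called ranged from 44 to 76 of 77 when 1 animal was left out, and all genes called from 739 to 4094 (main 2186). With 4 categories in 1 model of 24 animals, added after seeing the data, 1418 genes and 69 members were called. The small minus large difference between VHD and HD was 0.08, and 0.14 with all 82 members. With a pseudocount of 0.1 the mean log2 ratios of RPL3L/RPL3, RPL10L/RPL10 and RPL36AL/RPL36A were -13.72, -12.11 and 9.15 (main -10.83, -9.15 and 7.34), so these ratios rest on the pseudocount. The median for LD* against controls took the other sign in 9 of 24 alternatives. No paired analysis was possible because replicate numbers follow the order of the records. Unknown depth means that levels near 0 cannot be given a counting limit.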
